A study of Mus musculus with 12 samples.

Results

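The mouse mammary cancer line ME-A was set against both ME-B lines of the same series, one named ME-B and one named ME-B-T/t. The members of the comparison are the 3 line samples, of 12 samples in all: 1 array of ME-A and 1 array of each ME-B line. All 3 are breast cancer cell lines by their labels, which add "revertant" for ME-B and "retransformed" for ME-B-T/t. The remaining 9 arrays held 3 tumors from female WAP-SVT/t animals, 3 mammary glands from females of that transgenic line at the first lactation day and 3 glands from NMRI females at the same stage. WAP-SVT/t mice are of the NMRI strain and make the SV40 T and t antigens in mammary epithelial cells, driven by the Wap promoter, which is active in milk-secreting cells. The animals' ages, how the lines were derived or grown, whether a line is 1 clone and whether the transgene was active in each line are not given in the labels, which print the extraction of frozen tissue also for the lines. All 22626 probe sets other than the array's controls were compared, and a gene was counted only where both ME-B lines differed from ME-A in the same direction.

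Epithelial cells form sheets that are held together by adherens junctions, tight junctions and desmosomes, and they carry a cytoskeleton of keratins. Mesenchymal cells do not form such sheets, carry vimentin filaments and secrete collagens and other matrix proteins. In an epithelial-mesenchymal transition, which mammary carcinoma cells can undergo in culture and in tumors, repressors of the Zeb, Snail and Twist families lower the genes of the epithelial state.

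The label of ME-A as epithelial is not in the sample descriptions and was checked against markers. Of 26 luminal epithelial markers with a probe set, 17 were at least 4-fold higher in ME-A than in both ME-B lines and 0 were lower, while of 36 markers of fibroblasts and mesenchymal cells 0 were higher and 18 were lower. Basal and myoepithelial markers were mixed: of 19, 3 were higher in ME-A (Lamb3, Itgb4 and Krt14) and 2 lower (Acta2 and Tagln), with a median log2 difference of 0.00. Of 10 Schwann and neural crest markers, 2 were higher (Erbb3 and Sox10) and 0 lower. T cell, B cell and endothelial markers gave 0 genes in either direction (of 16, 9 and 19), and macrophage markers gave 1 of 23, Cd14. The 3 line arrays were near a common scale: their trimmed mean signals differed by at most 1.05-fold, and 69.0% to 72.4% of probe sets lay above the floor of 57.5 under which signals were treated as not measurable. The ratio of 3-prime to 5-prime Gapdh signal, a measure of RNA integrity, lay between 0.753 and 0.949 in the lines, against 0.969 to 5.63 in tumors and 2.49 to 22.5 in WAP-SVT/t glands.

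In all, 225 of 12393 genes (1.82%) had signals at least 4-fold higher in ME-A than in both ME-B lines, and 161 genes (1.30%) had signals at least 4-fold lower. By probe set these were 350 higher (1.55%) and 245 lower (1.08%) of 22626. With 1 array per line there was no replicate and no test, so these are counts past a fixed fold, and the spread between cultures of 1 line is unknown. Against ME-B alone 565 genes passed 4-fold and against ME-B-T/t alone 605, and 0 genes passed both in opposite directions. Between ME-B-T/t and ME-B 134 genes passed, 89 of them higher in ME-B-T/t. The ME-B lines lay within 2-fold of each other in 210 of the 225 higher genes and in 137 of the 161 lower ones. This closeness is partly built in, since genes were counted only where both ME-B lines lay to the same side of ME-A. The same share was not counted over all genes. Both ME-B lines were at the floor for 92 of the higher genes, and ME-A was at the floor for 69 of the lower genes. For those genes a fold is a lower bound. Where both ME-B lines were set to the floor, no difference between them can show. Just past the threshold were Runx1, Rhpn2 (4.01-fold higher) and Pdlim4, and just short of it were Pik3r1, Nipal2 (3.99-fold) and Celsr2 (3.98-fold). Where a gene's probe sets were averaged instead of taking the brightest, 39 of the higher and 40 of the lower genes were under 4-fold, among them Bgn, Btn1a1, Cmpk2, Col5a3, Col8a1, Csn3, Erbb3, Krt14, Pdgfra, Pim3, Rhpn2, Rsad2, Runx1, Tgfbr2 and Zeb1. On the other side Pim3 (4.02-fold lower), Map6 and Prkd1 lay just past it and Angpt4 and Mdfic (both 3.98-fold) just short.

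**Figure D1:**
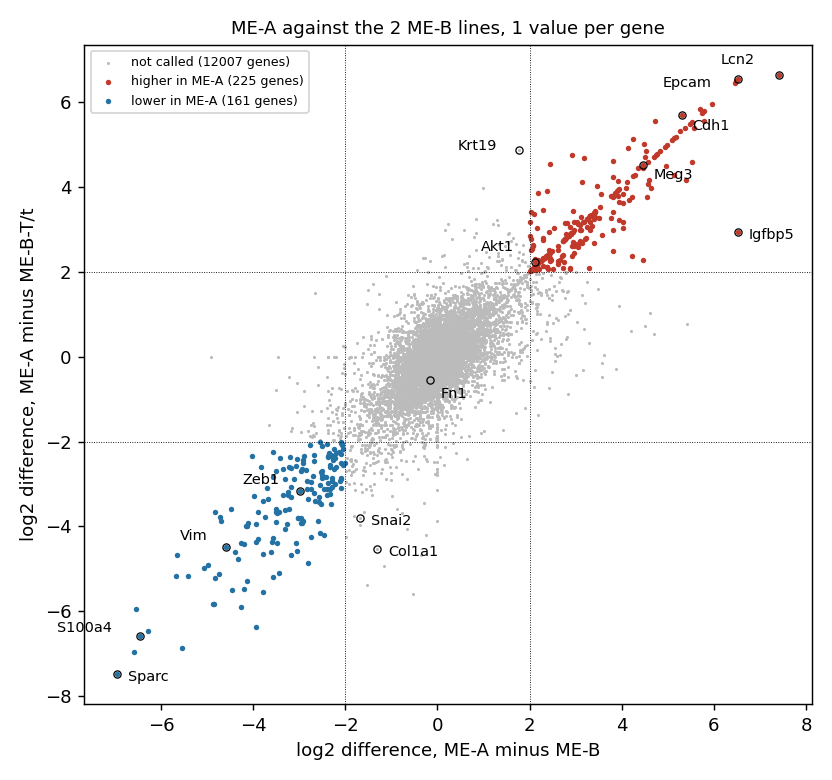
Each point is 1 gene, with the log2 difference of ME-A minus ME-B on the x axis and of ME-A minus ME-B-T/t on the y axis. The 225 genes higher in ME-A lie at the upper right and the 161 lower genes at the lower left, past the dotted 4-fold lines. Most lie near the diagonal, and genes with both ME-B lines at the floor lie on it by construction. Krt19, Snai2, Col1a1 and Igfbp5 lie off it.

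Genes of epithelial cell adhesion were the largest group of higher genes among the lists used. Of 55 genes of epithelial junctions and adhesion with a probe set, 29 were higher in ME-A and 0 were lower, with a median difference of 2.30 on the log2 scale, against 0.00 over all genes. Cdh1, which encodes E-cadherin, the core protein of adherens junctions, had a signal of 2937 in ME-A, against 74.4 in ME-B and 38.1 in ME-B-T/t. Epcam, an epithelial adhesion molecule, had a signal of 5308 in ME-A, against 9.05 in ME-B and 13.2 in ME-B-T/t. ME-A was thus 39.5-fold above ME-B for Cdh1 and at least 92.4-fold above both ME-B lines for Epcam. In the 3 tumors Cdh1 lay between 1892 and 2121 and Epcam between 5868 and 5999, close to ME-A.

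Tight junction, desmosome and epithelial splicing genes stood on the same side. The claudin Cldn7 had a signal of 3550 in ME-A, against 52.7 in ME-B and 56.0 in ME-B-T/t. Cldn3, Cldn4, Cldn8, Ocln and Marveld2, all parts of tight junctions, were also at least 4-fold higher. Dsp, which anchors keratin filaments at desmosomes, had a signal of 1541 in ME-A, against 206 in ME-B and 20.2 in ME-B-T/t, and Dsg2, Pkp1, Pkp3 and Evpl of the same structures passed too. Esrp1 and Esrp2 encode splicing factors that set the epithelial form of many transcripts. Esrp1 had a signal of 1257 in ME-A, against 3.31 in ME-B and 7.58 in ME-B-T/t, both at the floor, so the difference was at least 21.9-fold. Rab25, a small GTPase of epithelial recycling endosomes, was at least 23.9-fold higher, and Ap1m2, the epithelial subunit of a sorting adaptor, was 13.6-fold higher than in ME-B-T/t.

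The other 26 genes of the list did not pass. Tjp1, the scaffold ZO-1 of tight junctions, had similar signals of 861 in ME-A, 992 in ME-B and 727 in ME-B-T/t. Jup, or plakoglobin, had 1168 in ME-A, against 546 in ME-B and 375 in ME-B-T/t, and F11r, the junctional molecule JAM-A, had 1336 in ME-A, against 520 in ME-B and 726 in ME-B-T/t. The ME-B lines thus had measurable signals of these 3 junction genes. Grhl2, a transcription factor of epithelia, did not differ past 4-fold either, with 256 in ME-A, 229 in ME-B and 332 in ME-B-T/t. These genes were picked from the list after their values were seen.

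**Figure D2:**
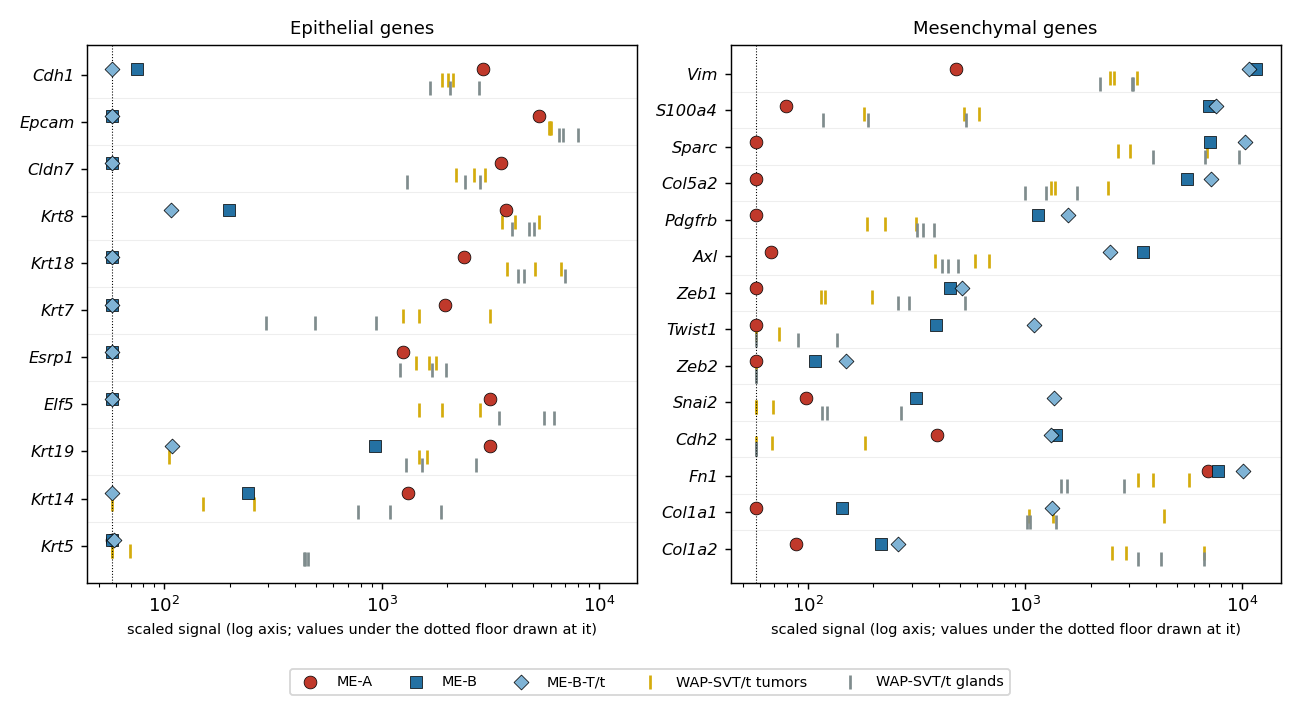
Scaled signals on a log axis for epithelial genes (left) and mesenchymal genes (right), with 1 point for each line and 1 tick for each of 3 WAP-SVT/t tumors and 3 WAP-SVT/t glands. ME-A lies with the tissues for Cdh1, Epcam, Cldn7 and Krt8 while both ME-B lines lie far below them, and the order is turned for Vim, Sparc and Col5a2; Fn1 has similar signals in all 3 lines and Krt5 is at or near the floor in each.

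Keratins of simple epithelium followed the junction genes, but keratins as a family did not move as 1 block. Krt8 had a signal of 3749 in ME-A, against 199 in ME-B and 107 in ME-B-T/t, and its filament partner Krt18 had 2393 in ME-A, against 40.5 in ME-B and 55.0 in ME-B-T/t. Krt7 had 1961 in ME-A and 11.4 and 11.1 in ME-B and ME-B-T/t. Of 18 keratins with a probe set 4 were higher in ME-A and 0 lower, and 5 were at the floor in all 3 lines. Krt19, another luminal keratin, had 3149 in ME-A and 932 in ME-B, against 108 in ME-B-T/t, so it differed by 29.2-fold from ME-B-T/t but by only 3.38-fold from ME-B and was not counted. The basal keratin Krt14 had 1325 in ME-A, against 243 in ME-B and 11.8 in ME-B-T/t, while its usual partner Krt5 was at 44.5 in ME-A, 55.5 in ME-B and 58.3 in ME-B-T/t, at or next to the floor.

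Luminal and secretory genes were partly present in ME-A. Elf5, the transcription factor of the milk-secreting lineage, had a signal of 3150 in ME-A, against 14.9 in ME-B and 12.8 in ME-B-T/t. Its relative Ehf was at least 26.8-fold higher in ME-A, and Kit, a receptor of luminal progenitors, was 26.6-fold higher than in ME-B. In the list of milk protein and secretion genes, 8 of 28 were higher in ME-A and 0 lower: Wfdc18, Muc1, Ltf, Csn1s1, Btn1a1, Muc15, Csn3 and Pigr. Csn1s1, a casein, had 1790 in ME-A, against 55.4 in ME-B and 79.6 in ME-B-T/t, and Ltf, or lactoferrin, had 4320 in ME-A, against 94.3 in ME-B and 180 in ME-B-T/t. Other milk genes were low in every line. Wap had 112 in ME-A, 108 in ME-B and 109 in ME-B-T/t, against 1603 to 6368 in WAP-SVT/t glands, and Csn2, the beta-casein, had 57.8 in ME-A, 123 in ME-B and 108 in ME-B-T/t. The receptor gene Esr1 was at 23.8 in ME-A, 66.6 in ME-B and 112 in ME-B-T/t, and Gata3, a luminal transcription factor, did not differ past 4-fold (548 in ME-A, 533 in ME-B and 740 in ME-B-T/t).

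The promoters of the genes higher in ME-A were read for the sequence CAGGTG and its reverse complement CACCTG, the E-box to which the Zeb and Snail repressors are known to bind. Stretches of 250 bases before the start are shown for 5 genes higher in ME-A that hold it, with Sparc, the gene with the largest difference in the other direction. They are RefSeq sequences of build GRCm38.p6, written 5′ to 3′ along the gene, with each copy of the motif in capitals, and where a gene has several starts the window with most copies is given. Epcam lies on the plus strand at chr17:87635729-87635978, Cldn7 on the plus strand at chr11:69965171-69965420, Krt8 on the minus strand at chr15:102004343-102004592, Elf5 on the plus strand at chr2:103411848-103412097, Ap1m2 on the minus strand at chr9:21312334-21312583 and Sparc on the minus strand at chr11:55420081-55420330.
Epcam: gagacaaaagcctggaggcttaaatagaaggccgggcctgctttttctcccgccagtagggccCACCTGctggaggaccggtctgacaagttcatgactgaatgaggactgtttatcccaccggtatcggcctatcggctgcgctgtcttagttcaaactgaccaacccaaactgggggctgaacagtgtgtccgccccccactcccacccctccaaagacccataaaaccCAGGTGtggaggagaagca
Cldn7: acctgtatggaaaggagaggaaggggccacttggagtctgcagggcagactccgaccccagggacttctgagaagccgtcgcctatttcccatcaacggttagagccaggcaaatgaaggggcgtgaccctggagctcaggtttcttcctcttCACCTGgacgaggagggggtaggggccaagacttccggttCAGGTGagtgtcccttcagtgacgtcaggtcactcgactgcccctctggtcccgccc
Krt8: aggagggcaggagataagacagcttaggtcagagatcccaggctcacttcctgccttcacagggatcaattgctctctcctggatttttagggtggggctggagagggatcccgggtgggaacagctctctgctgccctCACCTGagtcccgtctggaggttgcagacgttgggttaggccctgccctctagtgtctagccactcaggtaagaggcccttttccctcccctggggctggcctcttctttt
Elf5: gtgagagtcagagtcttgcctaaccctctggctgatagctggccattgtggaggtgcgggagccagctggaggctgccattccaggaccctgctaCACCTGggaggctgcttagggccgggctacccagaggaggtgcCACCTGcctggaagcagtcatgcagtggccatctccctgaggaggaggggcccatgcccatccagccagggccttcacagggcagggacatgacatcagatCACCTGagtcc
Ap1m2: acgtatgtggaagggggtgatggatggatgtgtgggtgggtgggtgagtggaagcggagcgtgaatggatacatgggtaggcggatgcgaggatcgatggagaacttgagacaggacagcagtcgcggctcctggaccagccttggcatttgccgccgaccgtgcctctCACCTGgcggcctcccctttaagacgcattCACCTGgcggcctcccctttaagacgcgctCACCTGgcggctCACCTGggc
Sparc: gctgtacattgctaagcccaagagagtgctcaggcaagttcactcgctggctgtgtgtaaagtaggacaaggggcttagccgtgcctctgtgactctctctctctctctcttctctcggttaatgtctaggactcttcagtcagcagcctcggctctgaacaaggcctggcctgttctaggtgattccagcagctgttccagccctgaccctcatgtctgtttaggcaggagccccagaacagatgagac
Counted from the start of the gene, the motif began at -187 and -19 in Epcam, at -97 and -57 in Cldn7, at -111 in Krt8, at -155, -112 and -11 in Elf5 and at -81, -51, -21 and -9 in Ap1m2. No copy was in the window of Sparc.

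Over the whole set, 169 of the 225 higher genes and 119 of the 161 lower genes had a window in the promoter table, with 229 and 154 windows. The motif was in 81 of the 229 windows of genes higher in ME-A (35.4%) and in 20 of the 154 windows of genes lower in ME-A (13.0%), against 5657 of all 32851 windows (17.2%). Windows of 1 gene can overlap and hold the same copy. Counted by gene, 75 of the 169 higher genes (44.4%) and 17 of the 119 lower genes (14.3%) had it in any window, against 19.4% of all genes with a window. Of windows of genes with at least 1 line above 140, the pooled median signal of the arrays, 15.3% held the motif. In the 100 bases next to the start it was in 46 windows of higher genes (20.1%) and 5 windows of lower genes (3.25%), against 7.03% of all windows. A related E-box, CAGCTG, was in 14.0% of the windows of higher genes and 14.9% of those of lower genes, against 13.0% of all windows. The median share of G and C was 58.8% in windows of higher genes and 60.8% in windows of lower genes. It was 60.4% in windows of genes with at least 1 line above a signal of 140. Junction genes that were not called held the motif in 7 of 17 windows (41.2%) and those higher in ME-A in 13 of 22 (59.1%). Outside the junction list 68 of 207 windows of higher genes (32.9%) held it. These shares describe the letters in the windows, with no test, and say nothing of what was bound there.

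A list of 31 genes with a probe set held repressors, other regulators and mesenchymal markers of the transition. Of these, 8 were lower in ME-A, 0 were higher and 23 passed in neither direction, with a median log2 difference of -1.03. The 8 were the repressor genes Zeb1 and Twist1 with S100a4, Axl, Vim, Hmga2, Cdh11 and Tgfbr2. At 2-fold, 13 of the 31 were lower in ME-A and 3 were higher. Zeb1 had a signal of 34.8 in ME-A, at the floor, against 453 in ME-B and 512 in ME-B-T/t, and Twist1 had 7.96 in ME-A, against 387 in ME-B and 1096 in ME-B-T/t. Both were at the floor in ME-A and above it in both ME-B lines. A second probe set named for Zeb1 was at the floor in all 3 lines. Zeb2 had 4.18 in ME-A, against 108 in ME-B and 150 in ME-B-T/t, which is under 4-fold from the floor. Snai2 had 97.6 in ME-A, against 313 in ME-B and 1358 in ME-B-T/t, so it passed against ME-B-T/t only, and Snai1 had 160 in ME-A, against 64.4 in ME-B and 107 in ME-B-T/t.

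The classical marker genes of the transition, which belong to the same list, also split. Vim, which encodes the filament protein vimentin, had a signal of 481 in ME-A, against 11496 in ME-B and 10768 in ME-B-T/t, 23.9-fold lower than in ME-B. S100a4, a calcium-binding protein of motile and fibroblastic cells, had 79.6 in ME-A, against 7016 in ME-B and 7599 in ME-B-T/t. Axl, a receptor tyrosine kinase, had 67.8 in ME-A, against 3470 in ME-B and 2446 in ME-B-T/t. The ME-B lines were close to each other for all 3 genes, and ME-A was far below them. Fn1, or fibronectin, did not pass, with 6924 in ME-A, 7716 in ME-B and 10051 in ME-B-T/t, and its dimmer second probe set had 342 in ME-A, against 803 in ME-B and 777 in ME-B-T/t. Cdh2, or N-cadherin, was 3.51-fold and 3.33-fold lower in ME-A, at 394, against 1382 in ME-B and 1314 in ME-B-T/t. On the brighter probe set Fn1 in ME-A was above the 3 tumors, which lay between 3293 and 5662.

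Collagens and their processing enzymes made up the largest lower group of the lists used, with 18 of 34 genes lower in ME-A, 0 higher and a median log2 difference of -2.42. Sparc, a collagen-binding matrix glycoprotein, had the largest difference of this direction, with 13.7 in ME-A, against 7114 in ME-B and 10257 in ME-B-T/t, at least 124-fold lower than in ME-B. Col5a2, a chain of collagen V, had 28.7 in ME-A, against 5535 in ME-B and 7163 in ME-B-T/t. Chains of basement membrane collagen IV (Col4a1, Col4a2), collagen VI (Col6a1, Col6a2, Col6a3), collagen III (Col3a1) and collagen V (Col5a1, Col5a3) were lower too. Col4a1 had 54.7 in ME-A, against 5394 in ME-B and 3543 in ME-B-T/t. So were Pcolce and Pcolce2, which aid the trimming of procollagen, Loxl1 and Loxl3, which cross-link fibers, and P4ha1, Plod1 and Serpinh1, which act on collagen in the endoplasmic reticulum. Matrix glycoproteins and proteoglycans other than collagen were lower in 9 of 50 genes, among them Fbln2, Ogn, Bgn and Thbs1, and higher in 0.

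Collagen I was an exception, and so were several genes that define fibroblasts. Col1a1 was at 5.77 in ME-A and at only 143 in ME-B, against 1323 in ME-B-T/t, and Col1a2 had 88.1 in ME-A, 216 in ME-B and 260 in ME-B-T/t, against 2503 to 6652 in the 3 tumors. The proteoglycan genes Dcn and Lum, high in connective tissue, were near or under the floor in all 3 lines. Dcn was under the floor in ME-A and had 11.7 in ME-B and 9.95 in ME-B-T/t, against 456 to 2952 in tumors, and Lum had 45.6 in ME-A, 62.3 in ME-B and 66.9 in ME-B-T/t, against 381 to 1223 in tumors. Thy1 and Fap, surface proteins of fibroblasts, were likewise at no more than 114 and 46.5 in any line. The ME-B lines thus had high signals of part of the fibroblast and mesenchymal list while some of its defining members were at or near the floor. Dcn, Lum, Thy1 and Fap were chosen after their values were seen.

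**Figure D3:**
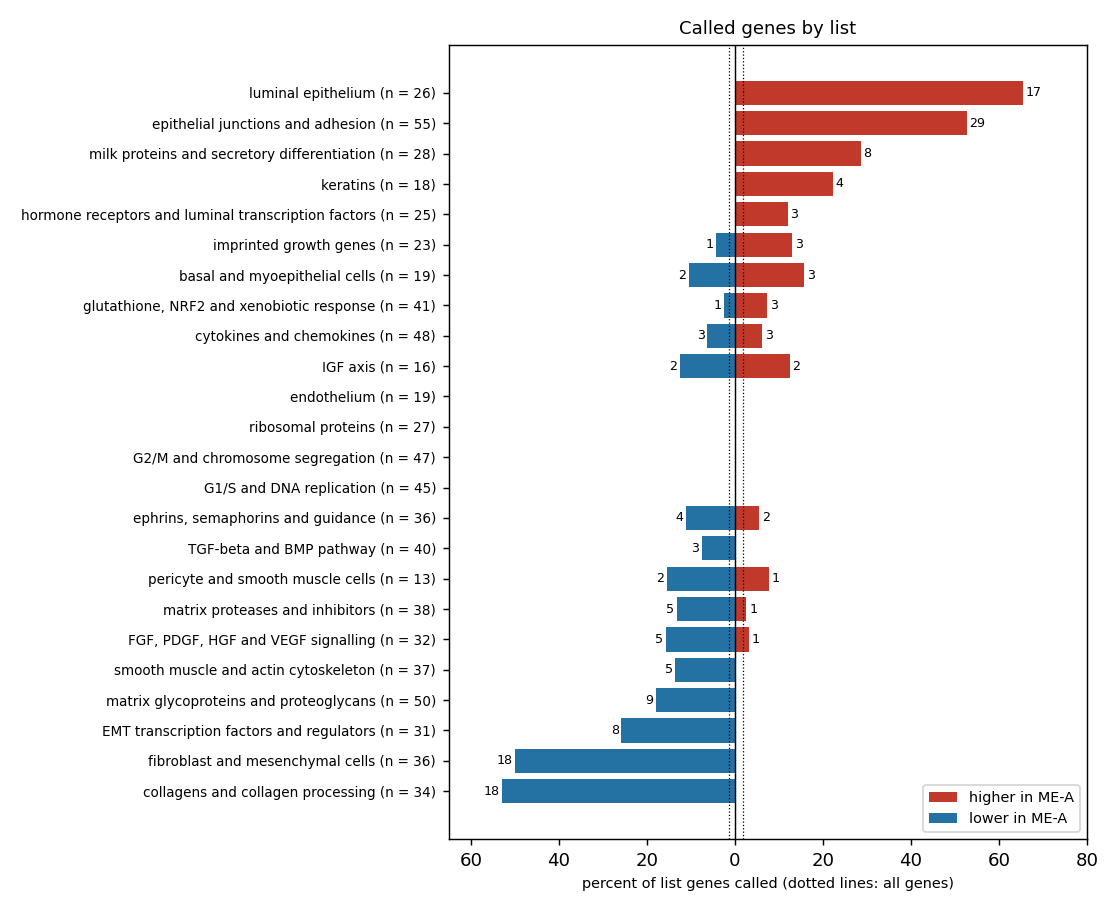
Percent of the genes of each list, of those with a probe set (n), that were at least 4-fold higher in ME-A than in both ME-B lines (right, with the number of genes) or lower (left), for lists with 3 or more such genes and 4 lists with 0. Dotted lines mark the percent over all genes, 1.82 higher and 1.30 lower; luminal and junction genes lie to the right and collagens and mesenchymal genes to the left.

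Most receptors and ligands of growth factor signalling did not pass. In the list of FGF, PDGF, HGF and VEGF signalling 5 of 32 genes were lower in ME-A, 1 was higher and 26 were neither, and in the EGF receptor family and its ligands 1 of 15 was higher and 14 were neither. Pdgfrb, a receptor of platelet-derived growth factor, had a signal of 2.69 in ME-A, against 1144 in ME-B and 1571 in ME-B-T/t, and Pdgfra had 46.6 in ME-A, against 434 in ME-B and 849 in ME-B-T/t. Both PDGF receptors were at the floor in ME-A. Erbb3, a receptor for neuregulins, had 704 in ME-A, against 86.7 in ME-B and 78.9 in ME-B-T/t. Of 40 genes of the TGF-beta and BMP pathway 3 were lower in ME-A and 0 higher: the ligand genes Bmp4 and Inhba and the receptor gene Tgfbr2. Tgfbr2 had 474 in ME-A, against 2385 in ME-B and 2852 in ME-B-T/t, and Bmp4 had 64.6 in ME-A, against 1142 in ME-B and 2532 in ME-B-T/t.

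Among genes of the contractile cytoskeleton, 5 of 37 were lower in ME-A and 0 higher. Acta2, the smooth muscle actin of myofibroblasts and myoepithelium, had 234 in ME-A, against 5095 in ME-B and 10535 in ME-B-T/t, and Tagln had 9.56 in ME-A, against 1004 in ME-B and 909 in ME-B-T/t. Cnn1 and Myh11, late smooth muscle genes chosen after their values were seen, were at the floor in all 3 lines. Most integrins and linked proteins did not pass: of 19 genes 1 was higher in ME-A, 1 was lower and 17 were neither, with a median of 0.00. Itgb4, the beta chain of the hemidesmosome receptor, had 545 in ME-A, against 27.9 in ME-B and 17.0 in ME-B-T/t. Itga5, the alpha chain of the fibronectin receptor, had 48.4 in ME-A, against 1630 in ME-B and 2124 in ME-B-T/t. 

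Of 48 cytokine, chemokine and related genes, 3 were higher in ME-A (Lcn2, Saa3 and Cfb), 3 were lower (Ptgs2, Cxcl12 and Cxcl5) and 42 were neither, with a median of 0.00. Lcn2, or lipocalin 2, an iron-carrier-binding protein of inflamed epithelium, had 9744 in ME-A, against 46.9 in ME-B and 97.6 in ME-B-T/t, 99.9-fold higher than in ME-B-T/t. Outside that list, the serum amyloid A genes Saa1 and Saa2 had 5035 and 2566 in ME-A, against signals at the floor in both ME-B lines. Saa1 and Saa2 were also at the floor in the 3 tumors, with at most 26.5 and 32.5, but had signals from 10279 to 10751 and from 6535 to 7366 in the 3 NMRI glands. The RNAs of these near-identical genes may bind each other's probe sets, so their signals are uncertain. Cp, or ceruloplasmin, and the chitinase-like Chil1 were likewise higher in ME-A. Ptgs2, the inducible prostaglandin synthase COX-2, went the other way, with 114 in ME-A, against 1813 in ME-B and 1116 in ME-B-T/t.

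Interferon-response genes separated ME-A from ME-B but hardly from ME-B-T/t. Of 42 genes 22 were at least 4-fold higher in ME-A than in ME-B, but only 2, Oas2 and Rsad2, were also higher than in ME-B-T/t. The median log2 difference of the list was 2.43 against ME-B and 0.01 against ME-B-T/t. Irf7, a transcription factor of the interferon response, had 2636 in ME-A, 143 in ME-B and 1743 in ME-B-T/t. It was chosen after its value was seen.

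Cell cycle and housekeeping genes did not separate the lines. Of 45 genes of the G1/S transition and DNA replication, 47 of chromosome segregation and 27 ribosomal protein genes, 0 passed in either direction, and their median log2 differences were 0.19, 0.08 and -0.31. Mki67, the proliferation antigen, had 2210 in ME-A, 1825 in ME-B and 1416 in ME-B-T/t. Xist, the RNA of the inactive X chromosome, was present in all 3 lines, with 6550 in ME-A, 6523 in ME-B and 5411 in ME-B-T/t. The tumor suppressor gene Rb1 had 1036 in ME-A, against 307 in ME-B and 499 in ME-B-T/t, and the inhibitor gene Cdkn1a had 1353 in ME-A, 1721 in ME-B and 657 in ME-B-T/t. Neither passed 4-fold against both lines.

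Some called genes were neighbours on a chromosome with no other gene of the array between them. Cdkn2a and Cdkn2b, which encode inhibitors of the cyclin-dependent kinases and the p53 regulator Arf, lie side by side on chromosome 4. Cdkn2a had 565 in ME-A, against 49.5 in ME-B and 46.2 in ME-B-T/t, and Cdkn2b had 568 in ME-A, against 13.0 in ME-B and 14.1 in ME-B-T/t. Both genes were at the floor in both ME-B lines, and ME-A was at least 9.83-fold and 9.88-fold higher. The next gene, Mtap, which acts in the salvage of methionine, was at 926 in ME-A, against 2959 in ME-B and 3578 in ME-B-T/t, and 4 of its 4 probe sets were lower in ME-A. Plaa, the fourth gene past Cdkn2b on the other side, had 880 in ME-A, 966 in ME-B and 830 in ME-B-T/t. In the tumors Cdkn2a lay between 181 and 440 and Cdkn2b between 96.7 and 698.

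Chromosome 12 had the highest share of higher genes, 15 of 384 genes (3.91%), and 7 of them formed 3 runs, of which Rsad2 with Cmpk2 was one. Meg3 and Rian are noncoding RNAs expressed from the maternal copy of an imprinted domain. Meg3 had 6064 in ME-A, against 275 in ME-B and 265 in ME-B-T/t, and Rian had 5776 in ME-A, against 112 in ME-B and 102 in ME-B-T/t. All 3 Rian probe sets and 4 of 5 Meg3 probe sets were over 4-fold higher in ME-A, and the remaining Meg3 probe set was under the floor in every line. Dlk1, expressed from the paternal copy of that domain, was low throughout, with 62.6 in ME-A, 102 in ME-B and 121 in ME-B-T/t. ME-A stood alone here: tumors had at most 485 for Meg3 and 202 for Rian.

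The remaining run on chromosome 12 was Adssl1, Siva1 and Akt1. Akt1, the kinase of the phosphoinositide 3-kinase pathway, had 6451 in ME-A, against 1495 in ME-B and 1371 in ME-B-T/t, and its second probe set had 7353 in ME-A, against 521 in ME-B and 619 in ME-B-T/t. Siva1, a pro-apoptotic adaptor, had 9604 in ME-A, against 1110 in ME-B and 988 in ME-B-T/t, and all 4 of its probe sets were over 4-fold higher in ME-A. Adssl1, the muscle form of adenylosuccinate synthase, had 430 in ME-A, against 12.4 in ME-B and 5.68 in ME-B-T/t. Genes on either side did not pass: Atp5mpl had 2286 in ME-A, 2072 in ME-B and 1357 in ME-B-T/t, and Cdca4 had 578 in ME-A, 982 in ME-B and 691 in ME-B-T/t. The ME-A signal of Akt1 and Siva1 was above every other array of the series, with at most 1495 for Akt1 and 1865 for Siva1 elsewhere. Whether the gene copy number differed between the lines was not measured.

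**Figure D4:**
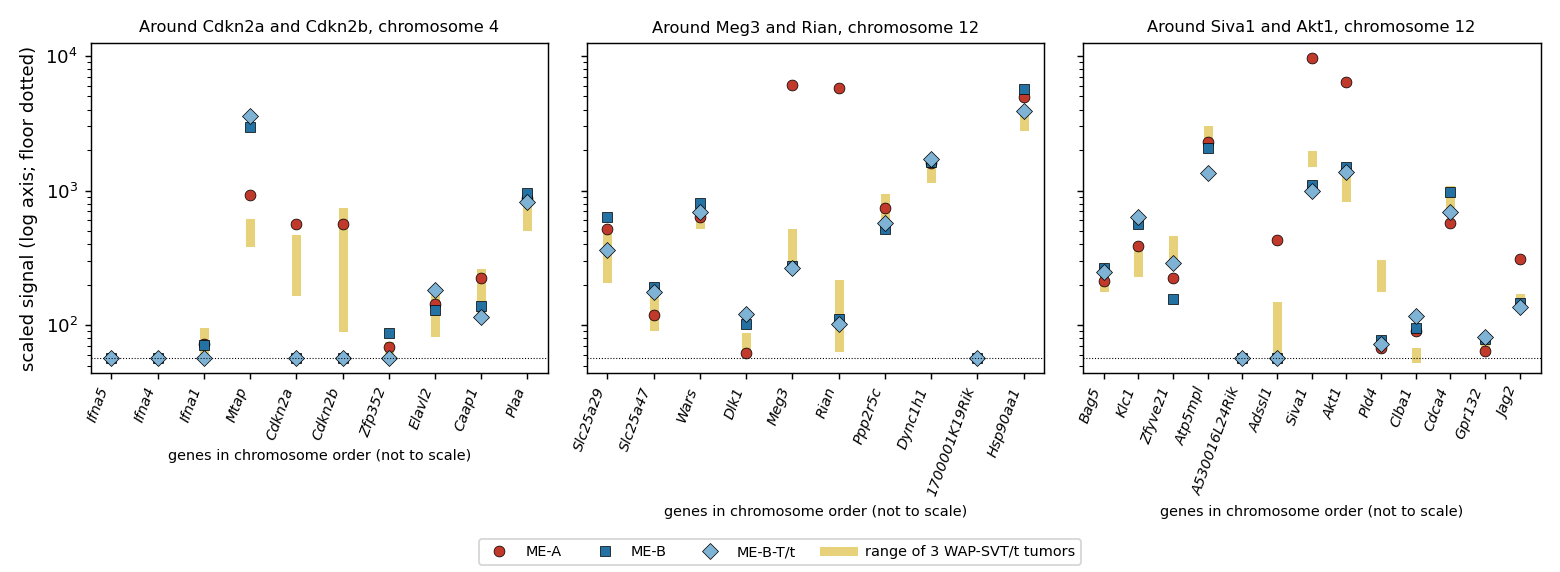
Scaled signals on a log axis of neighbouring genes in chromosome order at 3 places, with 1 point for each of the 3 lines and a bar for the range of 3 WAP-SVT/t tumors. Cdkn2a and Cdkn2b are at the dotted floor in both ME-B lines, Meg3 and Rian are high in ME-A alone, and Adssl1, Siva1 and Akt1 form a run of 3 genes that are higher in ME-A between genes that are not.

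Over 7535 runs of 21 neighbouring genes, the median difference lay between -0.63 and 0.56 on the log2 scale, and 0 runs reached a size of 1. Only genes with at least 1 line above the pooled median signal of 140 entered the runs. In runs of 11 genes 2 overlapping stretches on chromosome 4 reached -1.17. Other adjacent pairs included Krt8 and Krt18, Cldn3 and Cldn4, Saa1 and Saa2 and the junction genes Ocln and Marveld2 among the higher genes, and Col4a1 and Col4a2, Col6a1 and Col6a2, Col3a1 and Col5a2 and the proteases Adamts1 and Adamts5 among the lower genes.

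The tumors, which hold stromal cells beside carcinoma cells, were set beside the lines for the called genes. All 3 tumors were above the pooled median signal of 140 for 166 of the 225 higher genes (73.8%) and 89 of the 161 lower genes (55.3%), against 6180 of the 7945 genes with at least 1 line above that median (77.8%). The tumor mean was nearer to ME-A than to the ME-B lines for 174 of the 225 higher genes and for 91 of the 161 lower genes. This share was not counted over all genes. The higher genes were chosen for low signals in the ME-B lines, so these counts do not show that the tumors resemble ME-A. In a whole tissue, fewer cells of a type and less RNA per cell cannot be told apart. ME-A was at least 4-fold above all 3 tumors for 18 of the higher genes, among them Saa1, Saa2, Meg3, Rian, Akt1, Siva1 and Krt14. It was at least 4-fold below all 3 tumors for 32 of the lower genes, among them Sparc, Vim, Col3a1 and Mgp. These shares were not counted over all genes either. The genes were chosen for ME-A signals far from the ME-B lines, so the counts do not set ME-A apart from the tumors.

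Whether the genes that separate the lines also differ between WAP-SVT/t tumors and WAP-SVT/t glands was tested. This was done in tissue arrays that the line comparison did not use. The labels do not say whether any tumor and gland came from the same animal, and the groups were compared unpaired. With limma and Benjamini-Hochberg adjustment over 7812 genes, 97 genes (1.24%) were higher and 125 (1.60%) lower in tumors than in WAP-SVT/t glands. Of the genes higher in ME-A, 208 were tested, and 13 of them (6.25%) rose and 15 (7.21%) fell in tumors. Of the genes lower in ME-A, 123 were tested, and 7 of them (5.69%) rose and 3 (2.44%) fell. The median tumor minus gland difference was 0.00 and -0.08 on the log2 scale, against 0.01 over all genes, so neither set moved to 1 side. The tested genes had passed a filter on low signals, and fold changes of genes near the floor are understated. The spread of groups whose signals were set to the floor is understated too.

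The genes that rose in tumors among those higher in ME-A included a cell cycle inhibitor and a member of the luminal marker list. Tesc, a calcium-binding regulator of a sodium-proton exchanger, had 739, 1184 and 2092 in the tumors, against 5.62, 20.2 and 7.72 in the WAP-SVT/t glands, with no overlap (log2 difference 4.41, SE 0.34, limma adjusted p = 9.65e-05). Cdkn2a had 440, 294 and 181 in the tumors, against at most 45.4 in the glands (log2 difference 2.32, SE 0.33, limma adjusted p = 0.00510). Prom1 is a membrane protein of the luminal marker list. Its signals were 1150, 899 and 1503 in tumors and 80.5, 107 and 224 in glands (log2 difference 3.22, SE 0.41, limma adjusted p = 0.00253). In each of these the lowest tumor lay above the highest gland. For Tesc and Cdkn2a all WAP-SVT/t and NMRI glands were under the floor and were set to it. Their spread was thus 0.00 by construction, and the SE and p-values of both genes understate the spread.

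Among the 15 genes higher in ME-A that fell in tumors was Btn1a1. Btn1a1, a protein of the milk fat globule, had 297, 140 and 129 in the tumors, against 3790, 1201 and 4050 in the glands (log2 difference -3.91, SE 0.46, limma adjusted p = 0.00167). Ltf had 1140, 1055 and 2244 in the tumors, against 7357, 9961 and 8763 in the glands (log2 difference -2.63, SE 0.26, limma adjusted p = 5.57e-04). Elf5, Csn1s1, Muc15, Pigr and Krt14 fell too. ME-A thus had signals above all 3 tumors for Btn1a1, Ltf, Elf5 and Krt14, while Csn1s1 was lower in ME-A, at 1790, than in the tumors, at 3238 to 5310. Among the genes lower in ME-A, the matrix genes Thbs1, Col8a1, Mgp and Col12a1 rose in tumors, and Acta2, Ablim1 and Lpl, the lipoprotein lipase of adipocytes, fell.

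The tissue counts moved when single arrays were left out, and RNA integrity differed between the groups. Leaving out tumor 1, 2 or 3 gave 12, 10 and 15 genes that rose and 12, 8 and 14 that fell among those higher in ME-A, and 2, 1 and 8 that rose and 11, 0 and 1 that fell among those lower. The counts over all 7812 genes moved too, to 79, 43 and 116 that rose and 145, 36 and 76 that fell. Leaving out gland 1, 2 or 3 gave 11, 15 and 11 that rose and 8, 13 and 10 that fell among those higher, and 2, 5 and 3 that rose and 1, 1 and 0 that fell among those lower. Over all genes these were 46, 113 and 63 that rose and 55, 105 and 57 that fell. The Gapdh ratio was 0.969 to 5.63 in tumors and 2.49 to 22.5 in WAP-SVT/t glands. These ranges overlap only through tumor 1, at 5.63, while tumors 2 and 3, at 0.982 and 0.969, lay below every gland. The part of RNA integrity in these differences was not tested.

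**Figure D5:**
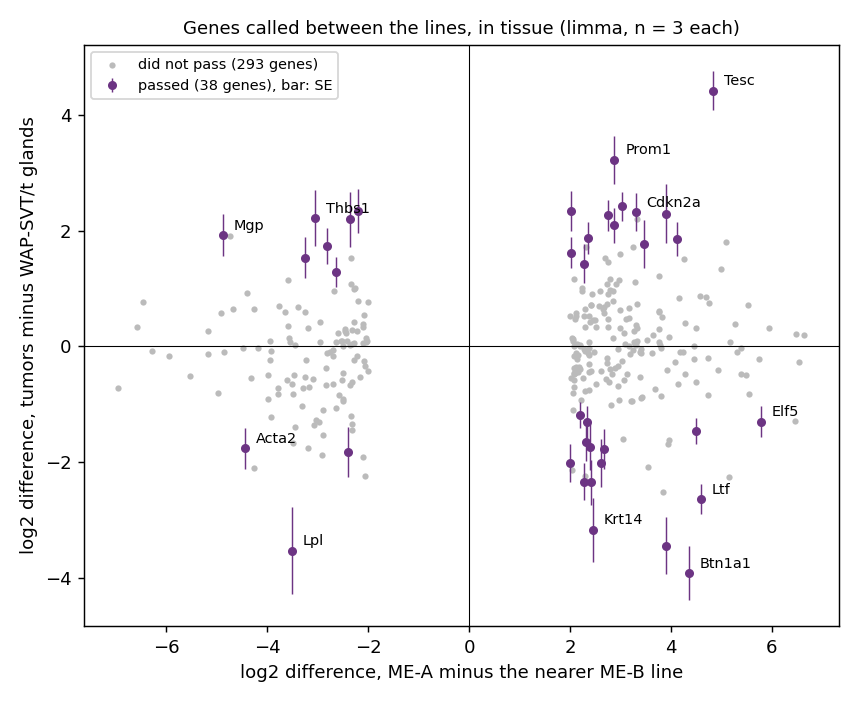
Each point is a gene called between the lines and tested in tissue, with the log2 difference of ME-A minus the nearer ME-B line on the x axis and the log2 difference of tumors minus WAP-SVT/t glands on the y axis. Genes that passed in tissue are dark with the standard error as a bar, and they lie above and below 0 on both sides, with Tesc highest and Btn1a1 lowest.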

How the data were processed

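The series has 12 single-color arrays, each with 22690 probe sets and 1 sample's RNA. The authors deposited probe set signals in linear intensity units, made with MAS5 per the submitters' processing notes; its version and scaling target are not given in these sources. Each array was scaled to a common trimmed mean (2% off each end), a floor at the pooled 30th percentile (57.5) replaced lower values, and the log2 scale was used. The array's 64 controls did not enter. Names came through the platform table and current RefSeq symbols: 20380 probe sets named 1 gene, 691 several and 1555 none, and only the first were used by gene. Each gene, 4956 of which had several probe sets, was represented by the one brightest on average over the lines. Probe sets of the called genes were never called in opposite directions. Promoters came from a RefSeq table of build GRCm38.p6.

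The line comparison has no test. A gene counted at 4-fold or more between ME-A and each ME-B line, in the same direction, with at least 1 line above the pooled median of 140. Tumors were compared with WAP-SVT/t glands by limma 3.58.1 in R 4.3.3 (lmFit, eBayes with an intensity trend, two-sided, adjusted p under 0.05), on 9 tissue arrays in 3 groups, for genes above the pooled median on at least 3 arrays. The calls and the fit were tested on simulated data. The labels do not say that the samples of a group came from separate animals, so p-values measure only the spread between these samples, which may be technical. The number of arrays limits the precision. Calls and plots were made in Python 3.11.15 with matplotlib 3.10.9.

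The comparison, the 35 gene lists and 11 marker lists were chosen with earlier results of these data known; 1203 of 1334 list genes had a probe set, and some genes are in several lists. Named genes were, in each direction, the 12 with the largest difference above the floor, the 12 with the largest bound at the floor, up to 4 called members of each list, a fixed set of known markers and genes of the chromosome places described; others are said in the text to have been chosen after their values were seen or stand as plain members of a list. Alternatives were other folds, scalings, floors and filters, other ways of joining probe sets, each ME-B line alone and, in tissue, other fits and leaving out each array.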

Additional observations from a re-analysis of the deposited data

How the results depend on the processing

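At a threshold of 2-fold 559 genes were higher and 518 lower in ME-A, and at 8-fold 100 and 68. Against ME-B-T/t alone 315 genes were lower. Against ME-B alone 329 were higher and 236 lower. All other scalings, floors, filters and probe set rules run left the counts within 1.5 times: 192 to 253 higher and 124 to 196 lower. Quantile normalization of the 12 arrays kept 212 of the 225 higher and 153 of the 161 lower genes. Runx1, at the threshold, was lost with no scaling, quantile normalization and the pseudocount, and Flnc with quantile normalization of the 12 arrays. Col1a1 passed with a floor at the 20th percentile and Zeb2 with a pseudocount of 16. Of the 225 higher and 161 lower genes, the mean of all probe sets lost 39 and 40, every measured probe set past the fold 29 and 34 (Col3a1, Dsg2, Krt14, Pdgfra, Rsad2 and Tgfbr2 among them), the floor at the 40th percentile 36 and 37 (Cldn8, Marveld2, Col5a3, Col8a1 and Inhba among them), and the filter at the 70th percentile 33 and 3 (Cldn8 and Marveld2 among them). In runs of 11 genes 2 stretches, both on chromosome 4 around Svep1 and Ptgr1, reached a median of -1.17.

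In tissue, the counts of genes higher in ME-A that rose and fell in tumors, and of genes lower in ME-A that rose and fell, were 13, 15, 7 and 3. They were 9, 4, 1 and 0 with no filter (39 rose and 29 fell of all 12393 genes) and 10, 8, 4 and 0 with only the 6 arrays compared (50 and 46 of 7812), against 97 and 125 of 7812 in the fit reported. With the mean of all probe sets the last count was 1. Leaving out single arrays gave 10 to 15, 8 to 14, 1 to 8 and 0 to 11. With the sample number as a replicate block they were 18, 14, 7 and 2, with 135 and 139 over all genes. Deviations from the group means correlated at -0.16, 0.34 and -0.09 between same-numbered tumors and WAP-SVT/t glands. Same-numbered WAP-SVT/t and NMRI glands had similar Gapdh ratios, at 10.7 and 12.9, 2.49 and 2.28, and 22.5 and 40.3. The labels do not say what samples of the same number share, and a shared processing set was not tested. Signals at the floor limit the lines, where 92 higher and 69 lower genes have only a bound, and with 1 array per line no difference has an error.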
